A study of Mus musculus with 9 samples.

Results

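The cytosolic ribosomal protein genes on the array were taken as every gene name made of Rpl or Rps and a number, with Rplp0, Rplp1, Rplp2 and Rpsa. Names of the Rps6k kinases (10) and of pseudogenes carrying -ps (6) were left out. This gave 86 of the 31093 gene names on the array, read by 191 probes. Each gene was represented by its brightest probe, and 84 of the 86 could be tested, among 21906 gene names tested in all. The other 2, Rpl10l and Rpl39l, paralogs known from the testis, had no probe well above background on all 3 arrays of any genotype. The 84 tested genes were 76 structural subunits of the ribosome (45 of the large and 31 of the small subunit), 7 paralogs and Rps19bp1, a binding protein whose name meets the letter rule but which is no subunit. All 86 names matched RefSeq, where 85 are protein coding and Rps4l is a transcribed pseudogene.

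The cytosolic ribosome translates the messenger RNAs of the nucleus, in neurons both in the cell body and in dendrites. Its proteins are made in nearly equal amounts, and their messenger RNAs are among the most abundant of a cell. Many of these messengers begin with a C followed by a run of pyrimidines, the 5' terminal oligopyrimidine (TOP) tract, through which mTOR signaling controls their translation. Translational control of this kind does not by itself change the messenger level that an array reads.

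RNA of the hippocampus came from 3 IF1KO, 3 CRL and 3 IF1TG mice, all male, aged 9 months and of the C57BL/6J strain, and each mouse had its own 1-colour array. IF1 is the inhibitory protein of the mitochondrial ATP synthase. In IF1KO mice exon 3 of the floxed IF1 gene was deleted by a Cre recombinase under the Camk2a promoter, which acts mostly in excitatory forebrain neurons. IF1TG mice carried human IF1 under a tetracycline-regulated element driven by Camk2a-tTA. CRL mice were the controls, and the array labels do not state their alleles. For its cultured neurons the study describes CRL as Atpif1+/+ with Cre, from the knockout breeding, and a separate control, wild type or carrying the tTA driver alone, from the transgene breeding. In this bulk tissue, fewer cells of a type and less RNA per cell cannot be told apart. IF1KO and IF1TG were both compared with the same 3 CRL arrays, so these comparisons are not independent.

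To show what the probes read, the brightest probes of 4 genes described below are printed in lower case, 5' to 3', each 60 bases long. Probe positions are those of the array annotation on mm9. The Rpsa probe lay at chr4:59175191-59175250, the Rpl34 probe at chrX:131216320-131216379, the Rps26 probe at chr8:109963188-109963247 and the Rps4l probe at chr6:148304043-148304102.
Rpsa: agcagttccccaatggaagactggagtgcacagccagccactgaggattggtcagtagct
Rpl34: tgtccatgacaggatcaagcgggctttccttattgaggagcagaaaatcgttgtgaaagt
Rps26: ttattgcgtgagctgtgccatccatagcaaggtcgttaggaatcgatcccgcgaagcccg
Rps4l: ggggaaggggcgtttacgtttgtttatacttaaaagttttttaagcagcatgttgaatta
RefSeq (GRCm38.p6) places Rpsa on chromosome 9, Rpl34 on chromosome 3 and Rps26 on chromosome 10, so that of these 4 only the Rps4l probe was annotated on the chromosome of its gene. Ribosomal protein genes have many processed copies in the mouse genome, and a probe can read RNA of the gene and of a near-identical copy. Over the members with both placements, the brightest probe was annotated on another chromosome than the gene for 55 of 82, 67.1%, against 2.43% of the 16444 gene names with both placements. The values below are therefore those of a probe, and which copy gave the signal was not tested.

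The start sites of 5 members are shown for the TOP tract, as 25 bases before and 25 bases from the RefSeq start on GRCm38.p6. Capitals mark the longest run of C and T that begins with C, has at least 5 bases and lies at least in part within 10 bases of the start. The first transcribed base is the 26th letter. The windows are chr2:39005107-39005156 for Rpl35, chr4:86857343-86857392 for Rps6, chr10:23787185-23787234 for Rps12, chr10:128626482-128626531 for Rps26 and chr9:120127741-120127790 for Rpsa.
Rpl35: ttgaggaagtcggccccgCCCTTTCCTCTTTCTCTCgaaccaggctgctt
Rps6: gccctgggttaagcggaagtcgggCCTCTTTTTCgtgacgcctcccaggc
Rps12: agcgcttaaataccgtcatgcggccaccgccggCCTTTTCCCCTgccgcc
Rps26: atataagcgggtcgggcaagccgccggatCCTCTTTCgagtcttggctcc
Rpsa: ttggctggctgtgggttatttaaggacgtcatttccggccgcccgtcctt
At the annotated start, Rpl35 and Rps6 lay within such a run, in Rps12 and Rps26 the run began downstream, and the Rpsa window held none. Start sequences were given for 65 of the 86 members. A C followed by at least 5 bases that were each C or T, on the transcribed strand and between 10 bases before and 16 bases from the start, was found at a start of 34 of these 65 genes, 52.3%, against 21.9% of 27025 genes. An exact start with C and at least 4 further pyrimidines was found in 13 members, 20%, against 3.01% of all genes. Among the tested members, the 33 with a tract near the start had a median log2 difference between IF1TG and IF1KO of 0.14 and the 30 without a median of 0.08, a description that carries no test.

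No member met the threshold for differential expression, a fold change of at least 1.5 with an unadjusted P below 0.05 in limma, in any of the 3 comparisons. Over all genes tested that threshold was met by 1.02% between IF1KO and CRL, by 4.31% between IF1TG and CRL and by 3.68% between IF1TG and IF1KO mice. By direction these were 0.593% higher and 0.425% lower, 2.07% higher and 2.24% lower, and 1.63% higher and 2.06% lower. The largest change of any member was 1.32-fold, 1.46-fold and 1.39-fold in these comparisons. No member passed an adjusted P of 0.05 (Benjamini-Hochberg over all kept probes), and neither did any other gene tested, 0% in each comparison. The smallest adjusted P of a member was 1.00, 0.547 and 0.66.

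The arrays measured these genes more tightly than most. The median SD between arrays of a genotype was 0.14 log2 units over the 84 members and 0.24 over all genes tested. Between IF1KO and CRL mice, the 95% confidence interval of the difference lay wholly within 1.5-fold for 63 members, 75%, against 50.7% of all genes. The same held for 63 members, 75%, against 45.8% between IF1TG and CRL, and for 59 members, 70.2%, against 46.6% between IF1TG and IF1KO mice. For the remaining members a change of 1.5-fold was not excluded by the interval. The widest intervals belonged to Rpl4 and Rpl13a, of the large subunit, then to the paralog Rpl36al, and to Rpl9 and Rpl23a, again of the large subunit.

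**Figure D1:**
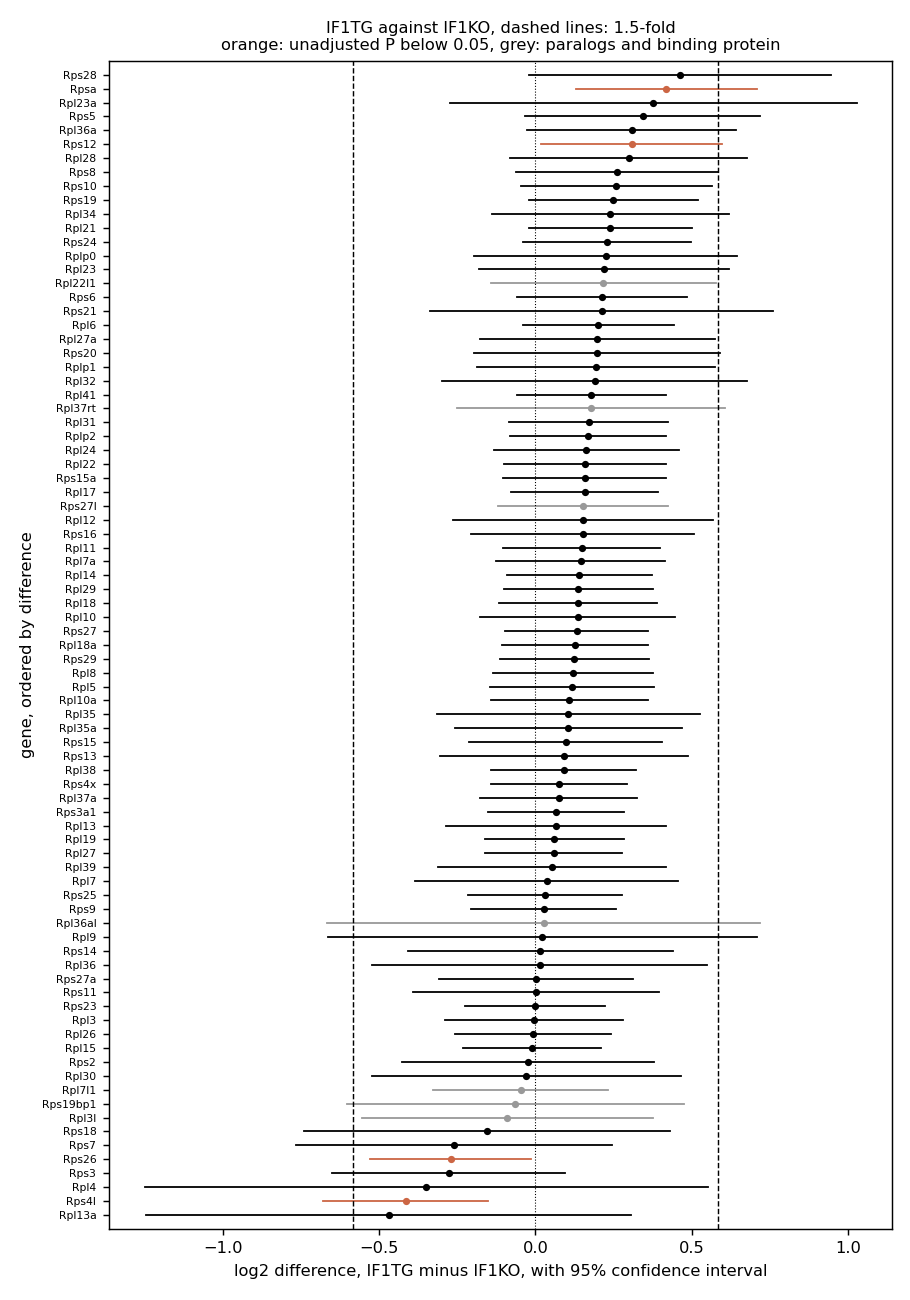
Log2 difference between IF1TG and IF1KO mice (IF1TG minus IF1KO, 3 arrays each, horizontal axis) with its 95% confidence interval from limma for 83 of the 84 tested genes (vertical axis, ordered by the difference). Dashed lines stand at 1.5-fold. Of the points shown, 67 lie above 0 and none reaches 1.5-fold, and the 4 in orange have an unadjusted P below 0.05.

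The list as a whole lay slightly higher in IF1TG mice. The median log2 difference of the 84 genes was -0.02 between IF1KO and CRL, 0.11 between IF1TG and CRL and 0.13 between IF1TG and IF1KO mice, against -0.01, 0.00 and 0.01 over all genes. The difference was above 0 for 37 members (44.0%), 63 members (75%) and 68 members (81.0%). Both subunits showed this: the median between IF1TG and IF1KO mice was 0.14 over the 45 large subunit genes, 39 of them above 0, and 0.12 over the 31 small subunit genes, 25 of them above 0. The 7 paralogs had a median of 0.03. Members share RNA and array, and these values are a description of the list.

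Array by array, the median member stood 0.06, 0.12 and 0.10 log2 units above its CRL mean on the IF1TG arrays 1, 2 and 3. It stood at 0.03, -0.04 and -0.02 on the IF1KO arrays and at 0.00, 0.05 and -0.06 on the CRL arrays. Every IF1TG array was above every other array in this measure, and the IF1KO and CRL arrays overlapped. With quantile normalization this separation was lost. The IF1TG arrays then stood at 0.0055, 0.059 and -0.032, the last being the lowest of the 9 arrays, and the others between -0.019 and 0.015. On the IF1TG arrays 53, 69 and 67 members were above their CRL mean, against 49, 30 and 38 on the IF1KO arrays and 43, 59 and 28 on the CRL arrays, so that by this count CRL 2 stood above IF1TG 1.

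**Figure D2:**
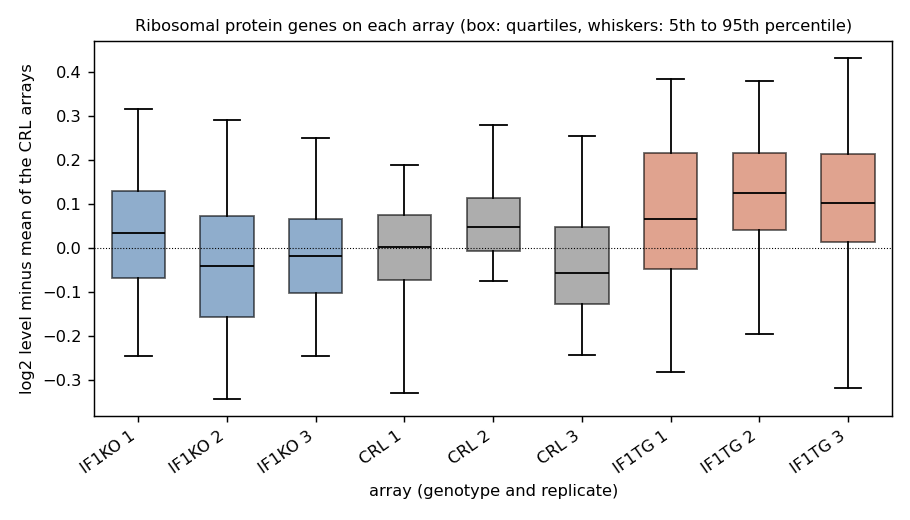
Log2 level of the tested ribosomal protein genes minus the gene's mean over the CRL arrays (vertical axis) on each of the 9 arrays (horizontal axis), with the median, the quartiles as a box and the 5th to 95th percentiles as whiskers. The medians of the IF1TG arrays lie at 0.06 to 0.12, and those of the other arrays at -0.06 to 0.05.

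The size of this shift depended on how the arrays were scaled. With each array set to its 75th percentile, the medians were those above. With cyclic loess they were 0.04 between IF1TG and CRL and 0.05 between IF1TG and IF1KO mice, with quantile normalization -0.01 and 0.01, and with normexp background correction before quantile normalization -0.00085 and 0.07. Under both settings with quantile normalization the median between IF1TG and CRL mice stood just below 0.

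Probe brightness moved with it. Of the 84 brightest probes, 76 fell among the brightest 10% of the genes tested. All 2191 genes of that 10% had a median difference of 0.06 between IF1TG and CRL and of 0.08 between IF1TG and IF1KO mice, whereas the dimmest 10% had medians of -0.21 and -0.16. The share of probes well above background was 66.7 to 69.5% on the IF1TG arrays and 71.0 to 74.9% on the others. The part of brightness in the members' shift was not tested.

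**Figure D3:**
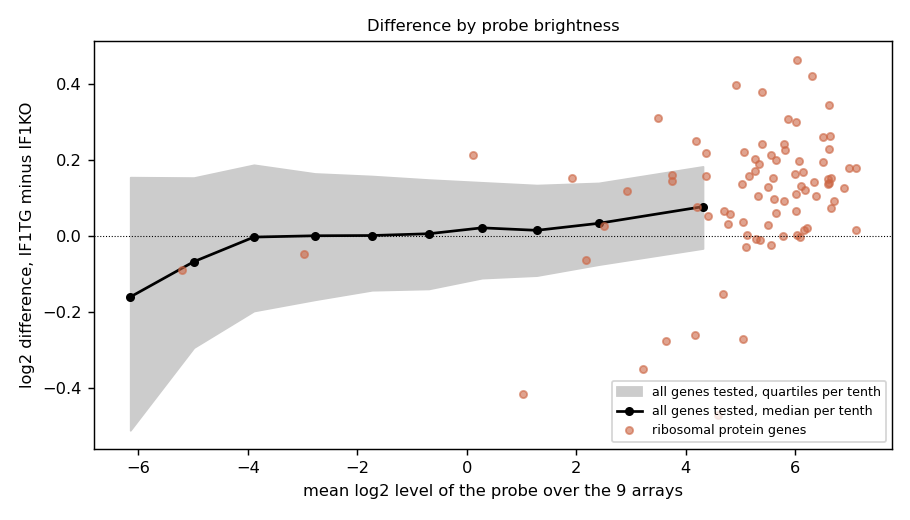
Log2 difference between IF1TG and IF1KO mice (vertical axis) against the mean log2 level of the probe over the 9 arrays, relative to each array's 75th percentile (horizontal axis). The black line and grey band are the median and quartiles of all genes tested in 10 bins of brightness, rising from -0.16 to 0.08, and the orange points are the ribosomal protein genes, 76 of which belong to the brightest bin.

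Slide was a further variable. The IF1TG arrays 1 and 2 lay on a slide with no other array, IF1TG 3 lay beside IF1KO 1, CRL 1 and CRL 2 on the second slide, and IF1KO 2 and 3 lay beside CRL 3 on the third. A fixed slide block and the values within the second slide therefore take their IF1TG side from the IF1TG 3 array alone, and they are not separate evidence. With slide as a fixed block the medians were 0.00 between IF1KO and CRL, 0.08 between IF1TG and CRL and 0.10 between IF1TG and IF1KO mice. Within the second slide they were -0.01, 0.06 and 0.11, and within the third the median between IF1KO and CRL was 0.03. In the blocked fit Rps7, of the small subunit, met the call threshold in IF1TG mice, with a log2 difference of -0.85 to CRL (limma, adjusted P = 0.24) and of -0.78 to IF1KO (adjusted P = 0.579). Without the block its differences were -0.31 and -0.26 and did not pass an unadjusted P of 0.05. Its level was 4.11, 4.40 and 3.43 on the IF1TG arrays, 4.36, 4.24 and 4.28 on the CRL arrays and 4.17, 4.31 and 4.24 on the IF1KO arrays, so that the low value was that of the IF1TG 3 array alone. Rpl35 (0.70) and Rpl37rt (0.67), a retrogene copy of Rpl37, also met it against CRL under the block, and Rpl35 against IF1KO (0.66). These values compare IF1TG 3 with the other genotypes and have no replicate on the IF1TG side.

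Markers of other cell types also varied between arrays, and most of their ranges overlapped between genotypes. The summed level of the 8 of 9 microglia markers measured on all arrays, in units of each array's 75th percentile, ranged from 55.0 to 66.2 on the IF1TG arrays, 51.9 to 58.9 on the CRL arrays and 45.5 to 55.7 on the IF1KO arrays. The marker left out, Cx3cr1, had no value on 1 IF1KO array. For 8 astrocyte markers the ranges were 50.4 to 57.1, 48.9 to 55.6 and 46.5 to 49.4, and for 9 oligodendrocyte markers 145 to 180, 134 to 171 and 97.1 to 145. All 9 markers of hippocampal pyramidal and granule neurons were well above background on the CRL arrays, and 8 of them on those of IF1KO and of IF1TG mice, with summed ranges of 18.4 to 22.9 on the IF1TG, 22.0 to 23.9 on the CRL and 19.6 to 24.1 on the IF1KO arrays. Markers of choroid plexus and ependyma varied most, from 5.41 to 188, 3.66 to 121 and 2.45 to 97.8. The part of these cells in the members' levels was not tested.

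The probe for the targeted gene, Atpif1, read 6.43, 5.20 and 5.53 on the arrays labelled IF1KO 1, 2 and 3, against 6.30, 6.34 and 6.19 on the CRL arrays. The array labelled IF1KO 1 was therefore not below the controls, and its results carry that label only. On the IF1TG arrays it read 6.42, 6.38 and 6.51, and whether the mouse probe reads the human transgene was not tested. Without the IF1KO 1 array the members' medians were -0.04 between IF1KO and CRL and 0.15 between IF1TG and IF1KO mice. Rpl23a then met the call threshold, with a log2 difference of -0.67 between IF1KO and CRL (limma, adjusted P = 0.984) and of 0.65 between IF1TG and IF1KO mice (adjusted P = 0.659), and so did Rps28 with a difference of 0.69 between IF1TG and IF1KO mice (adjusted P = 0.659). Both are proteins of the mature ribosome, Rpl23a at the exit of the nascent chain. The Rpl23a values rested on IF1KO 2, which read 4.38 against 5.35 on IF1KO 3 and 5.47 to 5.58 on the CRL arrays. The other Rpl23a probe differed in the opposite direction over all arrays, by 0.44 between IF1KO and CRL and -0.29 between IF1TG and IF1KO mice. Rps28 read 5.30 and 5.80 on IF1KO 2 and 3 and 6.21 to 6.27 on the IF1TG arrays, with IF1KO 1 at 6.23.

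Between IF1TG and IF1KO mice 3 members were higher and 2 lower at an unadjusted P below 0.05 in limma, against 3.6% and 3.26% of all genes. In this fit their shares were close to that background. Leaving out 1 array gave 2 to 7 higher and 1 to 2 lower members, with no share over all genes recomputed. Rpsa and Rps12, both of the small subunit, were among the higher genes, and the lower ones were Rps4l and Rps26. The arrays of the 2 genotypes did not overlap, in the higher direction, for 28 of 84 members, 33.3%, against 8.24% of all genes and 17.7% of the brightest 10%. In the lower direction 2 members did not overlap, against 5.18% of all genes. Under quantile normalization the first count was 6, 7.14% of the members against 7.14% of all genes, and under cyclic loess it was 10, 11.9% against 8.0%. The excess of the members over all genes was thus lost under quantile normalization.

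Between IF1TG and CRL mice 5 members were higher (among them Rpl32, Rpl34, Rpl35 and Rpsa) and 1 was lower (Rps26) at an unadjusted P below 0.05, against 4.2% and 3.93% of all genes. Arrays did not overlap for 15 members in the higher and 1 in the lower direction, against 6.66% and 5.42% of all genes, and in the higher direction 13.0% of the brightest 10%. The first count was 3 with quantile normalization, 3.57% of the members against 5.97% of all genes, and 7 with cyclic loess, 8.33% against 6.74%. Between IF1KO and CRL mice only Rps4l was higher at that P and no member was lower, against 1.35% and 1.22% of all genes, and no other tool was run. Here 5 members did not overlap in the higher and 4 in the lower direction, against 3.96% and 4.09%.

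Rpsa encodes a small subunit protein that is also known as the laminin receptor precursor. Its log2 level, where 0 is each array's own 75th percentile, was 6.64, 6.61 and 6.40 on the IF1TG arrays, 6.02, 6.20 and 6.17 on the IF1KO arrays and 6.20, 6.41 and 6.12 on the CRL arrays. The IF1TG arrays were above all IF1KO arrays and overlapped the CRL arrays, the lowest of them lying just under the highest CRL array. The difference was 0.42 ± 0.13 (SE, n = 3 per genotype) to IF1KO (limma, 95% confidence interval 0.13 to 0.71, adjusted P = 0.66) and 0.31 ± 0.13 to CRL (0.02 to 0.60, adjusted P = 0.57). With slide as a fixed block, where IF1TG 3 alone stands for IF1TG, it was 0.26 and 0.15, neither past an unadjusted P of 0.05. Within the second slide, with the same array, it was 0.38 to IF1KO and 0.09 to CRL. Under 4 of 21 alternatives the difference to IF1KO no longer passed that P, and under 14 of 21 that to CRL did not. Among these 21 alternatives, which do not include the values within a slide, the lowest were 0.04 and 0.11, those of the mean over the probes of Rpsa.

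The 4 Rpsa probes did not move together. The probe annotated on chromosome 10 was higher in IF1TG mice, by 0.28 to IF1KO (limma, adjusted P = 0.67) and 0.35 to CRL (adjusted P = 0.47), both past an unadjusted P of 0.05. The probe on chromosome 13 differed by 0.19 and 0.22 and did not pass it. The probe on chromosome 9, where RefSeq places the gene, was far dimmer and was lower in IF1TG than in IF1KO mice, by a log2 difference of -0.73 (limma, adjusted P = 0.7), past both parts of the call threshold. That probe read -3.66, -3.78 and -2.55 on the IF1TG arrays and -2.79, -2.44 and -2.58 on the IF1KO arrays, so that IF1TG 3 lay among the IF1KO values.

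Rps12, of the small subunit, read 6.09, 6.04 and 5.92 on the IF1TG arrays, 5.70, 5.70 and 5.72 on the IF1KO arrays and 6.07, 5.94 and 5.67 on the CRL arrays. The 3 IF1KO arrays lay within 0.02 of each other, and the CRL arrays overlapped both other genotypes. The difference between IF1TG and IF1KO was 0.31 ± 0.13 (SE, n = 3, 95% confidence interval 0.02 to 0.60, limma, adjusted P = 0.694). With slide as a fixed block it was 0.10 and did not pass an unadjusted P of 0.05, and within the second slide it was 0.22, both resting on IF1TG 3. Its other probe differed by 0.25 and did not pass it, and the difference of the brightest probe did not pass it under 13 of 21 alternatives.

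Rps26, whose protein lies where messenger RNA leaves the small subunit, was the structural subunit gene that was lower. It read 5.00, 4.82 and 4.75 on the IF1TG arrays, 5.22, 5.07 and 5.10 on the IF1KO arrays and 5.22, 5.13 and 5.09 on the CRL arrays. Every IF1TG array was below every other array. The difference was -0.27 ± 0.11 (SE, n = 3) to IF1KO (limma, 95% confidence interval -0.53 to -0.01, adjusted P = 0.698) and -0.29 ± 0.11 to CRL (-0.55 to -0.04, adjusted P = 0.549). Under 10 of 21 alternatives the difference to IF1KO no longer passed an unadjusted P of 0.05, and under 5 of 21 that to CRL did not. Without IF1TG 3, its lowest array, the differences were -0.22 and -0.24, and without IF1KO 1 the first was -0.23, all of them not past it. With slide as a fixed block they were -0.45 and -0.44, and within the second slide -0.47 and -0.43, both resting on IF1TG 3. A single probe read this gene.

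Rps4l, the transcribed pseudogene and a relative of Rps4x, was the member higher in IF1KO mice at an unadjusted P below 0.05. It read 1.29, 1.40 and 1.15 on the IF1KO arrays, 0.99, 0.87 and 0.98 on the CRL arrays and 0.81, 0.79 and 0.99 on the IF1TG arrays. Every IF1KO array was above every other array, and CRL and IF1TG overlapped. The difference was 0.33 ± 0.12 (SE, n = 3) between IF1KO and CRL (limma, 95% confidence interval 0.07 to 0.60, adjusted P = 1.00) and -0.42 ± 0.12 between IF1TG and IF1KO (-0.68 to -0.15, adjusted P = 0.66). The second difference was -0.28 with slide as a fixed block, resting on IF1TG 3, and no longer passed an unadjusted P of 0.05. The first was 0.36 and 0.30 between IF1KO and CRL within the second and the third slide. Without the IF1KO 1 array it was 0.33, and without CRL 2 (0.30) or IF1KO 2 (0.27) it did not pass an unadjusted P of 0.05. Rps4x, its X-linked coding relative, read 4.12 to 4.22 on the IF1KO, 4.19 to 4.26 on the CRL and 4.23 to 4.26 on the IF1TG arrays, with differences of -0.05 and 0.07 in the same comparisons.

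Rpl34, Rpl35 and Rpl32, of the large subunit, were higher in IF1TG than in CRL mice, and in each 1 or 2 low CRL arrays carried much of the difference. Rpl34 read 6.21, 5.96 and 5.92 on the IF1TG and 5.35, 5.90 and 5.49 on the CRL arrays, a difference of 0.45 ± 0.17 (SE, n = 3, limma, adjusted P = 0.547). Its second probe, on chromosome 4, differed by 0.06. Rpl35, whose protein borders the exit tunnel of the nascent chain, read 6.52, 6.41 and 6.71 on the IF1TG and 5.87, 6.14 and 6.40 on the CRL arrays, a difference of 0.41 ± 0.16 (limma, adjusted P = 0.566). Its second probe differed by 0.16. On the IF1KO 1 array its spot was an outlier and was left out, and the other IF1KO arrays read 6.43 and 6.45. Rpl32 read 5.69, 5.38 and 5.67 on the IF1TG and 4.56, 5.41 and 5.22 on the CRL arrays, a difference of 0.51 ± 0.21 (limma, adjusted P = 0.572), and its genotypes overlapped. Without the CRL 1 array the 3 differences were 0.33, 0.28 and 0.26 and did not pass an unadjusted P of 0.05. Within the second slide, with IF1TG 3 alone, they were 0.29, 0.70 and 0.69. Under 6, 12 and 11 of 21 alternatives they did not pass an unadjusted P of 0.05. In IF1KO mice Rpl34 read 5.91, 5.80 and 5.67 and Rpl32 5.46, 5.39 and 5.31.

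**Figure D4:**
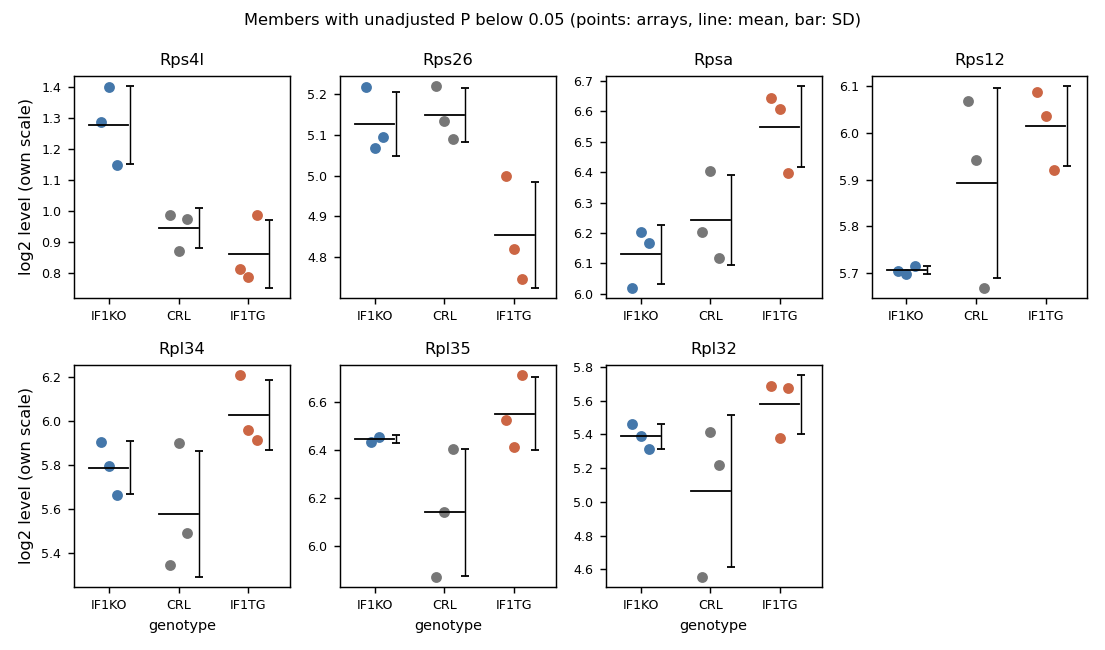
Log2 level relative to the array's 75th percentile (vertical axis, a scale of its own for each gene that does not start at 0) of 7 members with an unadjusted P below 0.05 in a comparison, by genotype (horizontal axis), with points for arrays, a line for the mean and a bar for the SD. The IF1KO points of Rps4l lie at 1.15 to 1.40 above all others, and the IF1TG points of Rps26 at 4.75 to 5.00 below all others.

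The members chosen for their roles did not pass an unadjusted P of 0.05 in any comparison, apart from Rpsa and Rps4l described above. Rplp0, Rplp1 and Rplp2 form the stalk that recruits elongation factors. Between IF1TG and IF1KO mice their differences were 0.23 ± 0.18, 0.19 ± 0.17 and 0.17 ± 0.11 (SE, n = 3), and only the Rplp2 arrays did not overlap. Rpl5 and Rpl11 form, with 5S RNA, the particle that binds Mdm2, and they differed by 0.12 ± 0.11 and 0.15 ± 0.11. Rps6, the substrate of the S6 kinases downstream of mTOR, read 5.52, 5.83 and 5.58 on the IF1TG, 5.42, 5.38 and 5.49 on the IF1KO and 5.65, 5.57 and 5.49 on the CRL arrays. Every IF1KO array was below every CRL and IF1TG array, by less than 0.01 between the closest IF1KO and CRL arrays. Its difference between IF1TG and IF1KO was 0.21 ± 0.12 (limma, adjusted P = 0.723) and between IF1KO and CRL -0.14 ± 0.12 (adjusted P = 1.00).

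Among the other large subunit proteins, Rpl22, which also binds RNA outside the ribosome, differed by 0.16 ± 0.11 (SE, n = 3) between IF1TG and IF1KO mice. Rpl38, known for selective translation of Hox messengers, differed by 0.09 ± 0.10, and Rpl41, the smallest protein of the ribosome, by 0.18 ± 0.10. Rpl3, Rpl10, Rpl10a and Rpl39 differed by 0.00, 0.14, 0.11 and 0.05 on the log2 scale. Rpl4 read 1.82 on the IF1TG 1 array against 3.39 and 3.53 on the other IF1TG arrays and 3.22 to 3.67 elsewhere, so that its difference of -0.35 ± 0.40 rested on that array. Rps3, of the small subunit, differed by -0.28 ± 0.16 and Rps27a, made as a fusion with ubiquitin, by 0.00 ± 0.14.

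The paralogs of subunits did not pass the test between IF1TG and IF1KO mice, Rps4l apart. Rpl22l1 differed by 0.22 ± 0.16 (SE, n = 3) between IF1TG and IF1KO mice, beside 0.16 for Rpl22. Rps27l differed by 0.15 ± 0.12, beside 0.13 ± 0.10 for Rps27, and Rpl36al by 0.03 ± 0.30, beside 0.31 ± 0.15 for Rpl36a. Rpl7l1 differed by -0.05 ± 0.12, beside 0.04 ± 0.18 for Rpl7, and Rpl3l, a paralog of muscle, by -0.09 ± 0.20. None of these differences passed an unadjusted P of 0.05, and the difference between a gene and its paralog was not tested.

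Probes of a gene differed widely among themselves. For 58 members 104 further probes were kept. Between IF1TG and IF1KO mice 61 of the 104 had the sign of the brightest probe, the median distance between them was 0.15 log2 units and the median of the further probes was 0.09. Between IF1TG and CRL mice 66 had the same sign and between IF1KO and CRL mice 55. Of the further probes 2 met the call threshold between IF1TG and IF1KO, that of Rpsa on chromosome 9 and that of Rps4x on chromosome 5 (-0.69, limma, adjusted P = 0.68), and 1 between IF1TG and CRL, a probe of Rpl6 on chromosome 5 (0.67, adjusted P = 0.46). Rpl13a, part of an interferon-responsive translational silencing complex, showed the range: its brightest probe differed by -0.47 (limma, adjusted P = 0.76) between IF1TG and IF1KO mice, and its other probes by 0.42 (adjusted P = 0.66) and 0.22 (adjusted P = 0.738). The median difference between IF1TG and IF1KO was 0.13 for the 55 members whose probe was annotated on another chromosome and 0.12 for the 27 on the chromosome of the gene. Only the chromosome was matched, so a probe of the 27 need not lie at the gene itself.

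**Figure D5:**
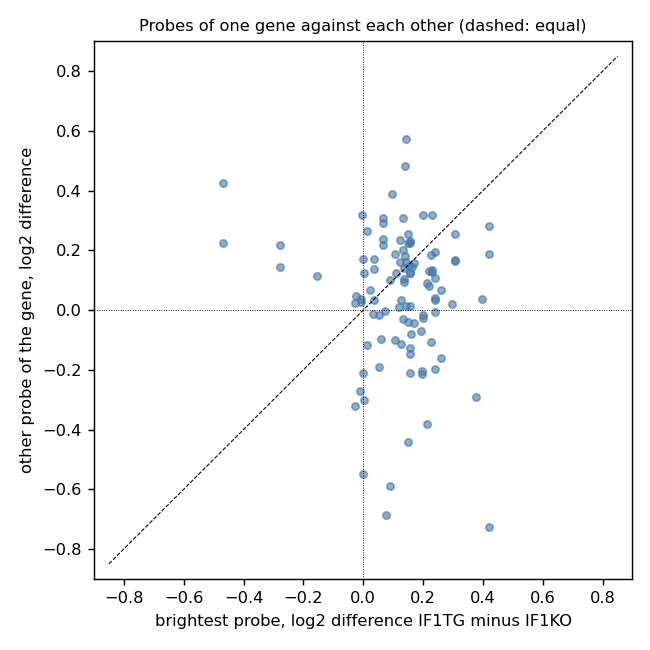
Log2 difference between IF1TG and IF1KO mice of each of the 104 further kept probes (vertical axis) against that of the brightest probe of the same gene (horizontal axis), with the dashed line where both are equal. Most points lie between 0 and 0.4 on the horizontal axis and spread from -0.73 to above 0.4 on the vertical axis, with 61 of them on the same side of 0 as the brightest probe.

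Genes that make ribosomes and work with them were read from lists of their own. Of 78 ribosome biogenesis genes tested, 1 was called between IF1KO and CRL, 3 between IF1TG and CRL and 1 between IF1TG and IF1KO mice, with medians of 0.02, -0.01 and -0.02. Over all genes 1.02%, 4.31% and 3.68% were called, so these counts were near or below that background. Npm1, the nucleolar chaperone nucleophosmin, was higher in IF1KO (0.70 ± 0.29, SE, n = 3, limma) and in IF1TG mice (0.76 ± 0.29) than in the shared CRL arrays, and its arrays overlapped in both. Utp14a, of the small subunit processome, was higher in IF1TG mice, by 0.65 ± 0.21 to CRL and 0.69 ± 0.21 to IF1KO, and Ddx47, a helicase of the nucleolus, lower than in CRL by a log2 difference of -0.65 ± 0.28. Adjusted P values were 0.506 or more for these genes.

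Of 42 initiation factor genes, 2 were called lower in IF1TG than in CRL mice, where 2.24% of all genes were, and 1 of them lower than in IF1KO mice, where 2.06% of all genes were. Eif3e, a subunit of the eIF3 complex, differed by -0.75 ± 0.23 (SE, n = 3, limma, adjusted P = 0.487) from CRL and by -0.73 ± 0.23 (adjusted P = 0.66) from IF1KO. Eif2a, an alternative initiator tRNA factor, differed by -0.68 ± 0.22 (limma, adjusted P = 0.506) from CRL. Arrays of Eif3e and Eif2a did not overlap in these comparisons. Of 18 elongation and release factor genes only Hbs1l, a ribosome rescue factor, was called, lower in IF1TG than in CRL mice (-0.59 ± 0.20, limma, adjusted P = 0.529). Neither Fau nor Gnb2l1, further ribosome components, was called.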

How the data were processed

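Per the file headers, the authors deposited spot intensity values from Agilent Feature Extraction 10.7.3.1, with background subtracted and without normalization between arrays. The other deposited columns used were mean and background intensity and the flags. The submitters' processing notes name limma.

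Processed intensity was taken to log2, and each array's 75th percentile was subtracted. Control spots and flagged outliers were removed, and repeated spots were averaged. A probe stayed if it was well above background throughout at least 1 genotype (27993 of 39429 probes). No spot of a member was saturated. The brightest such probe stood for its gene, and all 9 arrays, each 1 mouse, entered limma 3.58.1 (R 4.3.3, eBayes) by genotype. Benjamini-Hochberg adjustment ran over the 27993 kept probes, before the brightest probe of each gene was taken. The threshold of 1.5-fold with P below 0.05 follows the study's methods. Steps were tested on simulated data. Slide came from the array labels.

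Genes named are members past P 0.05, members chosen for their roles, and genes of other lists past the threshold. Rpl6, Rpl9, Rpl23a, Rpl30, Rpl37rt, Rps7 and Rps28 were named after their values were seen. Members, lists and tests were chosen with earlier results of these data known. The number of arrays limits the precision. Alternatives covered normalization, filters, blocks, probe choice and leaving out each array. Values of some genes are not reported here.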

Additional observations from a re-analysis of the deposited data

How the results depend on the processing

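No member passed an adjusted P of 0.05 in limma under any alternative tried, and no difference of a member's brightest probe past an unadjusted P of 0.05 changed sign. Differences that had not passed it could do so, as that of Rps12 between IF1TG and CRL did (0.12, and -0.084 within the second slide). Of the values of members past an unadjusted P of 0.05, recomputed under each alternative, 163 still passed it and 89 did not. Alternatives for members whose arrays did not overlap were chosen after seeing the data. The cause of the changes below was not tested. Shares over all genes were recomputed only for arrays not overlapping, under quantile, cyclic loess and normexp normalization. Counts under the other alternatives stand without such a share. With quantile normalization the medians between IF1TG and CRL and between IF1TG and IF1KO mice were -0.0052 and 0.0081 (0.11 and 0.13 as reported), 1 member was higher at an unadjusted P below 0.05 in each (5 and 3), and the members whose arrays did not overlap in the higher direction were 3 between IF1KO and CRL, 3 between IF1TG and CRL and 6 between IF1TG and IF1KO (5, 15 and 28), with 3 lower between IF1TG and CRL (1). With normexp and quantile normalization the medians were -0.00085 and 0.067, the members higher at that P 3 and 1, and those not overlapping 2, 2 and 7 higher, and 4 and 5 lower against CRL and IF1KO. With cyclic loess the medians were 0.036 and 0.054, 1 member was higher at that P between IF1TG and CRL, and 7 and 10 did not overlap higher and 3 lower than CRL. With the mean of a gene's probes the medians were 0.066 and 0.083, 1 member was higher at that P in each, and 2 and 18 members did not overlap higher (IF1KO to CRL, IF1TG to IF1KO) and 1 lower (IF1KO to CRL). The share over all genes with such means was not counted. Counting every kept probe, 1 probe was called between IF1TG and CRL and 2 between IF1TG and IF1KO, 10 and 10 were higher at that P, and 4 lower than IF1KO, and 29 and 48 did not overlap higher and 3 and 4 lower. With eBayes trend and robust settings 9 and 10 members were higher at that P, and the share over all genes under these settings was not counted. With slide as a fixed block, where IF1TG 3 alone stands for IF1TG, 3 and 2 members were called in these comparisons, and 2 were lower at that P than CRL. Within slides the medians that moved by more than the spread between arrays were 0.059 between IF1TG and CRL on the second slide and 0.028 between IF1KO and CRL on the third. Without a filter on dim probes 1 member was called between IF1KO and CRL and 1 between IF1TG and IF1KO, in both Rpl10l, whose probe was not well above background, with 1 member lower at that P in each. With only the 2 genotypes compared, 1 member was higher and 0 lower at that P between IF1TG and CRL. With structural subunits only, 0 members were higher at that P between IF1KO and CRL and 1 lower between IF1TG and IF1KO, and 3 and 1 did not overlap in these directions.

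Leaving out each array in turn, in the order IF1KO to CRL, IF1TG to CRL and IF1TG to IF1KO, the medians ranged from -0.06 to -0.0013, from 0.055 to 0.14 and from 0.11 to 0.15. Calls ranged from 0 to 1, 0 to 2 and 0 to 2, members higher at an unadjusted P below 0.05 from 0 to 3, 0 to 5 and 2 to 7, and members lower from 0 to 3, 0 to 2 and 1 to 2. Members not overlapping, a looser condition with an array fewer, ranged from 5 to 11, 15 to 30 and 28 to 39 higher and from 4 to 22, 1 to 5 and 2 to 4 lower. Shares over all genes were not recomputed with an array left out, so these ranges have no background beside them. The members called were Rpl30 without CRL 3 (0.78 between IF1KO and CRL, adjusted P = 0.61, and 0.75 between IF1TG and CRL, adjusted P = 0.441), where CRL 1, assumed to vary like the other arrays, alone stands for CRL since CRL 2 has no value, Rpl32 without CRL 2, CRL 3 or IF1TG 2 (0.69, 0.59 and 0.62), Rpl34 without CRL 2 (0.61) and, without IF1KO 1, Rpl23a and Rps28. Replicate numbers did not pair the arrays, since deviations of same-numbered arrays correlated between -0.166 and 0.117. With a replicate block the medians were -0.02, 0.11 and 0.13, no member was called, and 1, 4 and 4 members were higher and 0, 1 and 2 lower at an unadjusted P below 0.05, and Rpl32 no longer passed it between IF1TG and CRL.

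Arrays give no read depth. Of the members 84 had a probe well above background, and 3 arrays per genotype set the precision. What a probe annotated at another chromosome reads could not be settled without a genome, and IF1TG arrays 1 and 2 lay on a slide without another genotype.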
